A study of Mus musculus with 2 samples.

Results

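Gastrokines, trefoil factors and surface mucous marker genes were followed in 2 RNA-seq libraries of epithelium from the mouse gastric corpus, the part of the stomach that secretes acid. The 10 genes were taken by symbol from a list (Gkn1, Gkn2, Gkn3, Tff1, Tff2, Tff3, Psca, Ctse, Anxa10 and Aqp5), and all 10 were among the 37681 Ensembl gene identifiers of the deposited counts. Both libraries came from C57BL/6 mice carrying an Hdc-CFP transgene, a cyan fluorescent reporter for Hdc, which encodes the histamine-making enzyme histidine decarboxylase. The sorted library held Hdc-CFP+ cells isolated by flow cytometry, and the depleted library held corpus epithelial cells depleted of them. The study compared them to ask where the Hdc-expressing cells originate. Age, sex and the number of pooled mice are not given in the sources used here. With only 1 library a group, differences have no replicate check and no p-values. They are between these libraries, and fewer cells of a type cannot be told apart from less RNA per cell.

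The corpus surface and pits are lined by surface mucous cells, which secrete a protective gel built on the mucin Muc5ac together with gastrokines and trefoil factors. Deeper in the gland, mucous neck cells secrete the mucin Muc6 with Tff2. Gastrokines are secreted proteins with a BRICHOS domain, a fold thought to assist protein maturation, and trefoil factors are small secreted proteins held compact by disulphide bonds that take part in mucosal repair. Tff1 typically accompanies Muc5ac in surface cells, Tff2 accompanies Muc6 in neck cells, and Tff3 accompanies Muc2 in intestinal goblet cells.

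Gkn1, Gkn2 and Gkn3 are direct neighbours among the protein-coding genes of mouse chromosome 6, as are Tff3, Tff2 and Tff1 on chromosome 17. The promoters of the 3 gastrokine genes are shown because Gkn1 and Gkn2 had nearly the same difference between the libraries while their neighbour Gkn3 did not. Each is the 250 bases before the RefSeq transcription start, 5′ to 3′ on the gene's own strand, in build GRCm38.p6, whereas the reads were counted on mm9. They lie at chr6:87350916-87351165 on the minus strand (Gkn1), chr6:87373115-87373364 on the plus strand (Gkn2) and chr6:87388936-87389185 on the minus strand (Gkn3). Capitals mark GATAA on either strand (TTATC is the opposite-strand reading) and TATAAA on the gene's strand.
Gkn1: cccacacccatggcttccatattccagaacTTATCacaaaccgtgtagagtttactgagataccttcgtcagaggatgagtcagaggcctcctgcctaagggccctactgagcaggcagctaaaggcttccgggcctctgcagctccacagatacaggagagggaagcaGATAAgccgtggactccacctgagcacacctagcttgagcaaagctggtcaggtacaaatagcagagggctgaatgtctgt
Gkn2: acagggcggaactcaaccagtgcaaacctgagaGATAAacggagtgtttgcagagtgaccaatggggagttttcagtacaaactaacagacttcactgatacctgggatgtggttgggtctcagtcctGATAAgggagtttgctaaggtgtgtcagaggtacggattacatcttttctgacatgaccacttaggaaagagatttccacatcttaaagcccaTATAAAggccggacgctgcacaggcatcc
Gkn3: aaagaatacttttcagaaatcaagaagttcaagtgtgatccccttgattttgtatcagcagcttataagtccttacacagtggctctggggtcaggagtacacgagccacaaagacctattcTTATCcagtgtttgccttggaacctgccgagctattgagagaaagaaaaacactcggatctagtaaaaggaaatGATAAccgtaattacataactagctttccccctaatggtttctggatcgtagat

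RefSeq promoter windows were matched for 5 of the 10 genes (Gkn1, Gkn2, Gkn3, Anxa10 and Aqp5). GATAA is the core of the motif that GATA factors bind. It occurred 2 times in each gastrokine window, and 2 or more matches were found in 4.28% of all 32851 windows of this length. It was not found in the Anxa10 or Aqp5 windows. TATAAA, the TATA box sequence, was in the Gkn2 window at positions -29 to -24 from the start and in the Anxa10 window at -32 to -27, and was held by 7.59% of all windows. TGTTTAC, a forkhead motif, was in none of the 5 windows searched on both strands and in 3.17% of all windows. CACCC, a motif of Krüppel-like factors searched on both strands, was found once each in the Gkn1 and Aqp5 windows and in 52.01% of all windows. None of these motifs overlapped another in the 5 windows. These matches describe the letters only.

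Gene counts summed to 10736538 in the sorted library and to 50928524 in the depleted library. Levels are normalised CPM, counts per library size after scaling with edgeR's trimmed-mean (TMM) factors, and brackets give exact 95% intervals that cover counting error only. Hdc stood at 8750.2 CPM in the sorted library and 21.2 CPM in the depleted library, in the direction of the labels. The 10 genes took 0.463% of all gene counts in the sorted library and 12.5% in the depleted library. Gkn1 and Gkn2 made up 71.2% of that sum in the sorted library and 89.8% in the depleted library.

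A gene was counted as measured with at least 10 counts in 1 of the libraries, which left out Tff1. It was called lower or higher at a fold of at least 2 with an interval clear of 1. Of the 9 measured genes, 7 were lower in the sorted library, 1 was higher (Tff3) and 1 was neither (Gkn3). Among all 16682 measured genes 22.3% were lower and 21.9% higher by the same rule. The median log2 fold, sorted over depleted, was -4.12 over the 9 genes and -0.05 over all measured genes.

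**Figure D1:**
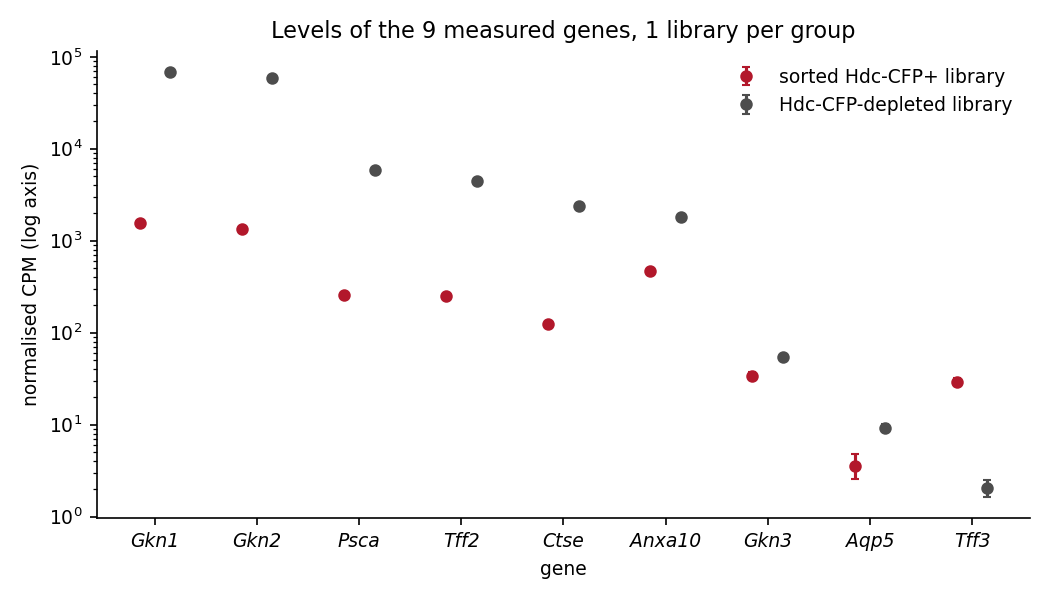
Normalised CPM (log axis) of the 9 measured genes, ordered by their depleted-library level, in the sorted Hdc-CFP+ library (red) and the Hdc-CFP-depleted library (grey). Bars are exact Poisson 95% intervals of the counts, 1 library per group. The red point lies below the grey one for 8 genes and above it for Tff3.

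Gkn1 and Gkn2, the gastrokines of surface mucous cells, were lower in the sorted library by nearly the same factor. Gkn1 (ENSMUSG00000030050) had 19052 counts, or 1565 CPM [1542 to 1587], in the sorted library and 3064571 counts, or 68248 CPM [68172 to 68324], in the depleted library. Its level was thus 43.6-fold lower [43.0 to 44.2] in the sorted library. Gkn2 (ENSMUSG00000030049), whose human protein forms a heterodimer with TFF1, stood at 1345 CPM [1325 to 1366] in the sorted library and 59503 CPM [59431 to 59574] in the depleted library. It was 44.2-fold lower [43.6 to 44.9] in the sorted library, and its interval overlapped that of Gkn1. Of 2120 genes with at least 100 CPM in the depleted library, 28 were more strongly lower than Gkn1 and 27 than Gkn2. For Psca the number was 90, for Ctse 105, for Tff2 116 and for Anxa10 403. This set was picked by its depleted-library level and leaves out strongly lower genes below 100 CPM there.

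Gkn3, a gastrokine reported from mouse mucous neck cells, did not share that difference. Gkn3 (ENSMUSG00000030048) had 408 counts, or 33.5 CPM [30.3 to 36.9], in the sorted library and 2421 counts, or 53.9 CPM [51.8 to 56.1], in the depleted library. Its level in the sorted library was 1.61-fold lower [1.45 to 1.79], short of the 2-fold limit. Scaled to 14 ubiquitous genes its ratio turned to 1.04, so its direction depends on the scaling.

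The trefoil factors went in opposite directions. Tff2 (ENSMUSG00000024028), the trefoil factor of mucous neck cells, had 3084 counts, or 253 CPM [244 to 262], in the sorted library and 198372 counts, or 4418 CPM [4398 to 4437], in the depleted library. It was 17.4-fold lower [16.8 to 18.1] in the sorted library. Tff3 (ENSMUSG00000024029) had 356 counts, or 29.2 CPM [26.3 to 32.4], in the sorted library and 92 counts, or 2.05 CPM [1.65 to 2.51], in the depleted library. It was 14.3-fold higher [11.3 to 18.1] in the sorted library, although that library was the shallower one. It was the only one of the 9 measured genes that was higher there.

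Most measured genes in a list of intestinal genes did not share the direction of Tff3. Muc2, the intestinal gel mucin, had 19 counts in the sorted library against 148 in the depleted library and was 2.11-fold lower [1.31 to 3.61] in the sorted library. Spink4 was 12.0-fold lower [9.13 to 15.97] in the sorted library, and Agr2, which folds mucins in the endoplasmic reticulum, 8.20-fold lower [7.75 to 8.67]. Lgals2, a galectin gene of the intestinal list, was 25.98-fold lower [24.0 to 28.1]. In the depleted library Lgals2 stood at 1340 CPM and Agr2 at 868 CPM, against 3.30 CPM for Muc2. Whether these genes mark goblet cells in these libraries was not tested. Fcgbp, whose product binds TFF3 in humans, was 1.87-fold lower [1.40 to 2.55] and was not called, and the interval of Zg16 spanned equality (sorted to depleted ratio 0.851 [0.480 to 1.43]). Cdx1 and Cdx2, the intestinal homeobox genes, were at or below 6 counts in either library. Muc2, Fcgbp, Zg16, Cdx1 and Cdx2 were named after their values were seen. Of the 10 measured genes of the intestinal list, 7 were lower in the sorted library, 1 was higher (Vil1, 2.79-fold [2.60 to 2.99]) and 2 were neither. Summed, they stood at 289 CPM in the sorted library and 2340 CPM in the depleted library. In a list of pancreatic enzymes, by contrast, 5 of 6 measured genes were higher in the sorted library. Summed, these stood at 9176 CPM in the sorted library and 144 CPM in the depleted library. Pnliprp1 was 213-fold higher [203 to 224] in the sorted library, Cel 532-fold [436 to 655] and Prss2 292-fold [217 to 402], whereas Cela1 was 2.94-fold lower [2.66 to 3.25]. Cpa1, named after its value was seen, was listed at 0 in both libraries. The 13 endocrine genes were all higher, with sums of 88987 CPM in the sorted library and 787 CPM in the depleted library, among them Hdc (413-fold [388 to 441]), Chga (391-fold [382 to 400]), Chgb (257-fold [242 to 273]) and Ghrl (9.55-fold [9.40 to 9.70]). Whether pancreatic or endocrine RNA accounts for the Tff3 counts was not tested.

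Tff1 (ENSMUSG00000024032) was listed at 0 in both libraries. Muc5ac, its usual companion, had 6477 counts in the sorted library and 894538 in the depleted library. In GENCODE M21 31.4% of the exon bases of Tff1 overlap exons of an antisense gene, Gm15318, which was also listed at 0 in both libraries. HTSeq leaves out reads that match more than 1 gene. Which annotation was used for counting is not given in the sources used here, so the overlap at counting is not known. The cause of the zeros was not tested.

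Psca and Ctse were also lower in the sorted library, Ctse by a factor close to that of Tff2 and Psca by a larger one. Psca (ENSMUSG00000022598), a lipid-anchored surface protein of the Ly6 family, had 3117 counts, or 256 CPM [247 to 265], in the sorted library and 260684 counts, or 5805 CPM [5783 to 5828], in the depleted library. It was 22.7-fold lower [21.9 to 23.5] in the sorted library. Ctse (ENSMUSG00000004552), which encodes the intracellular aspartic protease cathepsin E, stood at 125 CPM [119 to 132] in the sorted library and 2366 CPM [2351 to 2380] in the depleted library. It was 18.9-fold lower [17.9 to 19.9] in the sorted library, and its interval overlapped that of Tff2 but not that of Psca.

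Anxa10 and Aqp5 differed much less. Anxa10 (ENSMUSG00000031635), a member of the calcium-dependent membrane-binding annexins with high expression in the stomach, had 5775 counts, or 474 CPM [462 to 487], in the sorted library and 81401 counts, or 1813 CPM [1800 to 1825], in the depleted library. This is a 3.82-fold lower level [3.72 to 3.93] in the sorted library. Aqp5 (ENSMUSG00000044217), a water channel, was low in both libraries, with 43 counts, or 3.53 CPM [2.56 to 4.76], in the sorted library and 418 counts, or 9.31 CPM [8.44 to 10.2], in the depleted library. It was 2.64-fold lower [1.92 to 3.70] in the sorted library, and with scaling to the ubiquitous genes, at a sorted to depleted ratio of 0.637, it was not called.

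To compare genes with each other, levels were divided by the exon length of each gene in GENCODE M21 (normalised CPM per kilobase). In the sorted library the order was Gkn2 (1707 CPM per kilobase), Gkn1 (1252), Tff2 (434), Psca (298), Anxa10 (207), Tff3 (59.3), Ctse (39.5), Gkn3 (39.1) and Aqp5 (1.36). Ctse and Gkn3 did not differ there beyond counting error. In the depleted library the order was Gkn2 (75511 CPM per kilobase), Gkn1 (54598), Tff2 (7565), Psca (6751), Anxa10 (791), Ctse (746), Gkn3 (63.0), Tff3 (4.16) and Aqp5 (3.58). Tff3 and Aqp5 did not differ there beyond counting error. By exon length the first 5 places were the same in both libraries. With the longest transcript as the length, Ctse stood at 58.9 CPM per kilobase in the sorted library, beyond counting error above Gkn3 (39.1) and within it of Tff3 (59.3). By that length Ctse moved ahead of Anxa10 in the depleted library (1113 against 1028 CPM per kilobase) and Aqp5 ahead of Tff3 (5.18 against 4.16).

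The amount of each gene found in the sorted library was uneven when set against its depleted-library level. Gkn2 and Gkn1 stood at 2.26% and 2.29% of their depleted-library levels, Psca at 4.41%, Ctse at 5.30% and Tff2 at 5.73%. Anxa10 stood at 26.2% [25.5 to 26.9], Aqp5 at 37.9% [27.0 to 52.0] and Gkn3 at 62.1% [55.8 to 69.0]. Below equality the genes thus ran from the close pair Gkn1 and Gkn2, through Psca, Ctse and Tff2, to Anxa10 and Aqp5, with Gkn3, which was not called, nearest to equality.

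Ratios within a library do not depend on the scaling between libraries. Set side by side, they restate the folds above relative to Gkn1 and are not separate evidence of the unevenness. Gkn2 had 860 counts per 1000 Gkn1 counts in the sorted library and 872 in the depleted library. As a share of the counts of both genes, Gkn2 held 46.2% [45.7 to 46.8] in the sorted library and 46.6% [46.5 to 46.6] in the depleted library, and these intervals overlap. Tff2 had 162 counts per 1000 Gkn1 counts in the sorted library and 64.7 in the depleted library. Psca had 164 in the sorted library and 85.1 in the depleted library, and Ctse had 80.1 in the sorted library and 34.7 in the depleted library. Anxa10 had 303 counts per 1000 Gkn1 counts in the sorted library and 26.6 in the depleted library. Gkn3 had 21.4 in the sorted library and 0.790 in the depleted library.

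**Figure D2:**
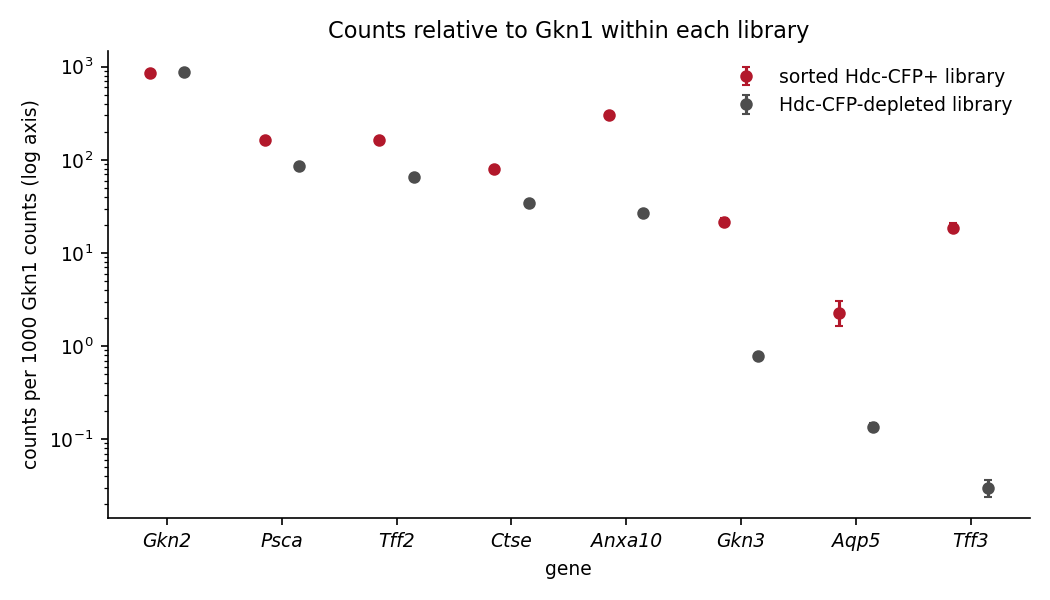
Counts of each gene per 1000 Gkn1 counts (log axis) in the sorted Hdc-CFP+ library (red) and the Hdc-CFP-depleted library (grey), with exact binomial 95% intervals. The points nearly coincide for Gkn2 (860 in the sorted library, 872 in the depleted library), whereas the sorted library is higher for the other 7 genes, by the most for Tff3.

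The counts that the ratio of Gkn1 would place in the sorted library give the same comparison in reads. At that ratio the depleted-library counts of Anxa10 correspond to 506 counts in the sorted library, and 5775 were found, 11.4 times as many [11.1 to 11.7]. For Gkn3 15.1 counts correspond to that ratio and 408 were found, 27.1 times as many [24.5 to 29.9]. For Aqp5 2.60 correspond and 43 were found, 16.5 times as many [11.98 to 22.3]. Tff2 had 2.50 times [2.41 to 2.59], Ctse 2.31 times [2.20 to 2.43] and Psca 1.92 times as many [1.86 to 1.99]. Gkn2 had 0.986 times as many [0.971 to 1.001]. The intervals of this paragraph cover only the sorted-library count of each gene. They leave out the counting error of its depleted-library count and of both Gkn1 counts, and so are too narrow.

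Against the mucin genes, Gkn1 and Gkn2 were close to Muc5ac and Mucl3 of the surface but not to Muc1. Muc1, of the same surface list and named after its value was seen, stood at 7.48% [6.83 to 8.17] of its depleted-library level in the sorted library. Muc5ac stood at 2.67% of its depleted-library level in the sorted library and Mucl3, another surface mucin-like gene, at 2.47%, while Muc6, the mucin of neck cells, stood at 22.6%. Tff2, the companion of Muc6, had 445 counts per 1000 Muc6 counts in the sorted library and 1757 in the depleted library. Gkn3 had 58.9 per 1000 Muc6 counts in the sorted library and 21.4 in the depleted library. Aqp5 had 6.21 per 1000 Muc6 counts in the sorted library, from 43 counts, and 3.70 in the depleted library. The 3 listed neck cell members therefore did not keep 1 ratio to Muc6 between the libraries. Relative to Muc6, Tff2 was lower in the sorted library, and Gkn3 and Aqp5 were higher.

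All 12 other surface mucous genes were measured and lower in the sorted library, and their median log2 fold was -3.64. Their sorted-library levels ran from 1.78% of the depleted-library level for Capn8, a stomach calpain gene named after its value was seen, to 41.3% for Fut2, a fucosyltransferase gene also named then. Vsig1, a gastric adhesion gene, stood at 8.98% and Cldn18, the stomach claudin, at 34.8%. Of 4 other mucous neck genes 3 were lower. Galnt6, which starts mucin O-glycans, was 7.53-fold lower [6.84 to 8.32] in the sorted library, whereas Clps, which encodes pancreatic colipase and does not mark neck cells alone, had an interval that spanned equality (sorted to depleted ratio 0.992 [0.984 to 1.001]).

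**Figure D3:**
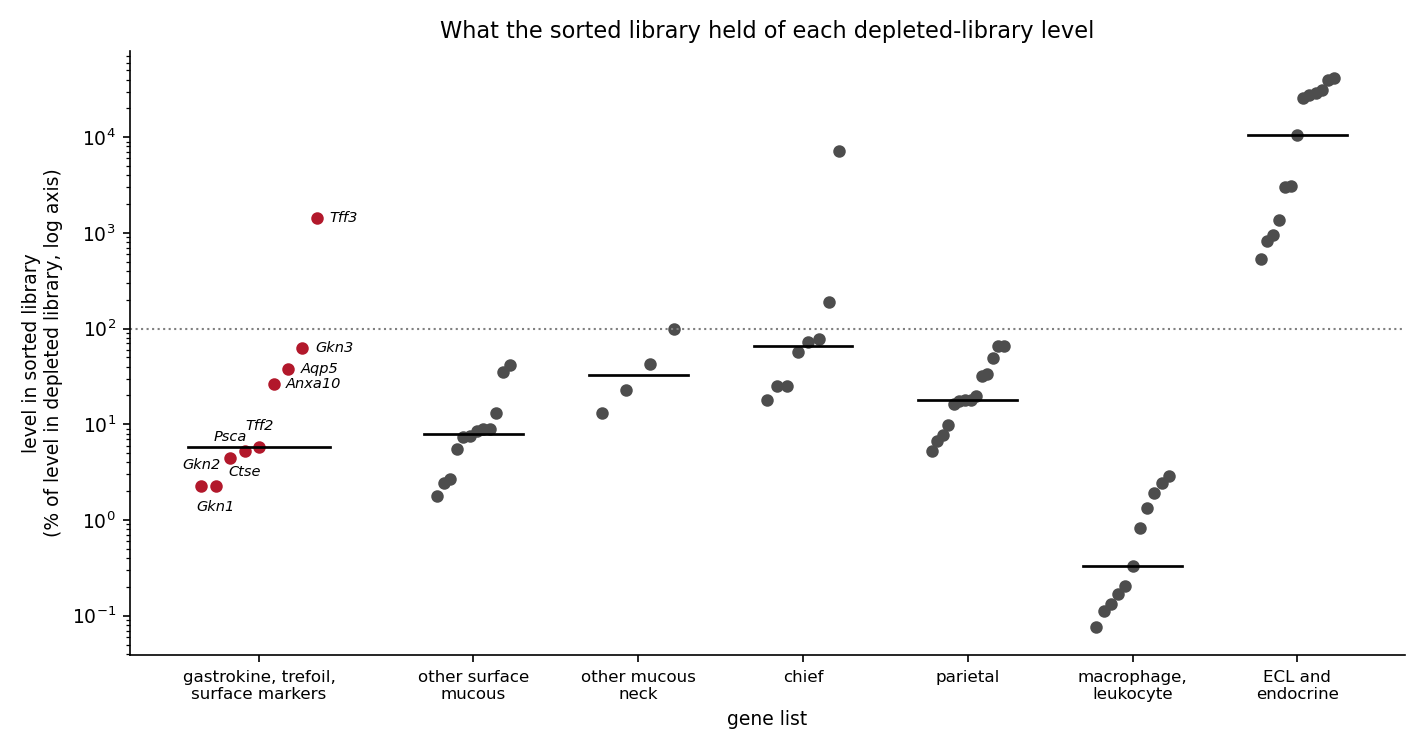
Level in the sorted library as a percent of the level in the depleted library (log axis), 1 point per measured gene. Red marks the gastrokine, trefoil and surface marker genes. Grey marks the list of other surface mucous genes and gene lists of other cell types, all without the red genes. Black lines are medians and the dotted line marks equal levels. The red points run from 2.26% for Gkn2 to 62.1% for Gkn3, with Tff3 above equality, and the medians are 18.1% for parietal and 0.327% for macrophage and leukocyte genes.

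Of 14 parietal genes 12 were lower in the sorted library, and the median log2 fold of the list was -2.47. The acid pump subunit genes Atp4a and Atp4b stood at 17.5% and 18.1% of their depleted-library levels, Ezr, which encodes the membrane linker ezrin, at 9.76%, and Car2, the carbonic anhydrase gene, at 5.25%. Chief cell genes were mixed. Of 8 measured, 3 were lower, 4 were neither and 1 was higher, with a median log2 fold of -0.63 that turned to 0.12 with scaling to the ubiquitous genes. Pgc, the pepsinogen C gene, stood at 25.1% of its depleted-library level and Chia1, an acidic chitinase gene, at 18.2%. Gif, the intrinsic factor gene, stood at 57.5% and Rab3d, a secretory granule gene, at 78.1%, and neither was called. The higher one was Ctrb1, also a pancreatic gene and named after its value was seen, with 78 counts in the sorted library and 4 in the depleted library. Macrophage and leukocyte genes were lower in 11 of 11 cases, with a median log2 fold of -8.24, and stood summed at 17.3 CPM in the sorted library and 3134 CPM in the depleted library. Among them Lyz2 stood at 0.204% of its depleted-library level, Csf1r at 0.0754%, Mrc1 at 0.327% and C1qa at 1.32%. The part that the mix of cells in the depleted library plays in the members' differences was not tested.

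The families of the marker genes were mixed. Of 11 measured annexin genes 6 were lower and 1 was higher in the sorted library. Anxa3 stood at 2.51% of its depleted-library level, close to Gkn1, whereas Anxa4 stood at 95.5%, and Anxa7, at 35.7%, was the nearest of the abundant ones to Anxa10. Of 6 measured aquaporin genes 3 were lower and 1 higher: Aqp3 was 62.1-fold lower [31.5 to 144] in the sorted library, Aqp11 4.76-fold lower [3.50 to 6.63], and Aqp4, the parietal cell water channel, 1.52-fold lower [1.23 to 1.89] and not called. The higher one was Aqp8, named after its value was seen, with 94 counts in the sorted library and 1 in the depleted library. Of 15 measured Ly6 family genes 10 were lower and 1 higher. Lypd8 was 36.1-fold lower [32.3 to 40.4], Lypd6 15.2-fold lower [11.7 to 20.1] and Ly6e 9.16-fold lower [8.14 to 10.3] in the sorted library, while Ly6h, named after its value was seen, was higher, with 171 counts in the sorted library and 7 in the depleted library. Among 8 measured aspartic protease genes 5 were lower and 2 higher, and Ctsd, the lysosomal relative of Ctse, stood at 54.8% and was not called. Pga5, a pepsinogen gene, was 3.99-fold lower [3.78 to 4.22]. Of 6 measured BRICHOS domain genes 2 were lower (Gkn1 and Gkn2) and 1 higher. Itm2b, a broadly expressed one, stood at 96.8% and Itm2c was 4.57-fold higher [4.41 to 4.73] in the sorted library.

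Of 22 measured genes in a list of transcription factors picked for the stomach, 13 were lower in the sorted library and 0 were higher. The list is not limited to factors of the epithelium. Klf4, which acts in differentiated surface epithelium, stood at 8.92% of its depleted-library level. Gata4 stood at 27.0% and Elf3, an epithelial Ets factor, at 26.3%. Xbp1, the secretory stress factor, was 1.87-fold higher [1.82 to 1.92], short of the limit. Library totals without a factor moved all log2 folds up by 0.36, which takes Xbp1 past the limit. The count of 0 higher genes thus depends on the scaling. Foxq1, which drives Muc5ac in the mouse stomach and was named after its value was seen, stood at 4.36%, in the range of Psca. Among 8 measured partners and receptors linked to trefoil factors 7 were lower, among them Dmbt1, which encodes a trefoil-binding scavenger protein (9.76-fold [8.75 to 10.9]), and F2rl1, the PAR2 receptor gene (13.97-fold [11.05 to 17.9]).

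Over the libraries, the 5 genes nearest to the mean log2 fold of Gkn1 and Gkn2, among the 2110 others that have a symbol and at least 100 CPM in the depleted library, were Sectm1b, Fer1l6, Akr1b8, Rep15 and Cd74, which were 40.9-fold to 46.5-fold lower in the sorted library. Their absolute differences from that mean were 0.02 to 0.10 on the log2 scale. Their sorted-library counts ran from 31 (Akr1b8, fold interval 30.2 to 63.1) to 248 (Cd74, 36.1 to 46.5). The fold intervals of all 5 held the folds of Gkn1 and Gkn2, so these differences are within counting error. This likeness rests on 2 libraries and so on 1 ratio per gene. Cd74, the invariant chain of MHC class II, is typical of antigen-presenting cells and can also be made by epithelium.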

How the data were processed

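RNA was measured in 2 libraries, 1 per group. Per the labels' protocols, RNA came from a silica column kit and libraries from the TruSeq RNA kit. TopHat2 2.0.07 aligned the reads to mm9 and HTSeq counted them, per the submitters' processing notes, while strand setting and annotation release are not given in the sources used here. As deposited by the authors, the files hold raw counts per Ensembl gene. The 5 HTSeq summary rows stayed out of library sizes; in the sorted library they held 9.20% of alignments as reads outside genes, 1.45% as reads matching several genes and 24.2% as non-unique alignments, and in the depleted library 4.91%, 1.11% and 34.3%.

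Symbols came from GENCODE M21 and matched 32642 identifiers. Apart from Tff1, no member shared a 50-base word with a transcript of another gene in M21. TMM factors (edgeR 4.0.16, R 4.3.3) over genes with at least 10 counts were 1.13 (sorted library) and 0.882 (depleted library). With 1 library per group no test was run. Folds have exact Clopper-Pearson and CPM exact Poisson 95% intervals. At a count of 0 the upper Poisson limit was 0.303 CPM in the sorted library and 0.0822 CPM in the depleted library. A separate fixed floor of 3 counts was 0.246 CPM in the sorted library and 0.0668 CPM in the depleted library. Log2 folds used for medians add 0.5 counts in proportion to library size. Fold and interval code was tested on simulated data. Named are all 10 members, the 4 most abundant measured genes of each list described in the report, and the 5 nearest in fold, and genes outside this rule are marked where named. The members and lists were chosen with earlier results of these data known. Alternatives were upper-quartile factors, library totals with and without the 20 most abundant genes of either library, size factors of DESeq2 1.42.0, 14 ubiquitous genes, other count minimums, and a 4-fold limit with an interval beyond 2-fold. TMM over all genes was added after seeing the data.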

Additional observations from a re-analysis of the deposited data

How the results depend on the processing

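No paired analysis was possible because each group has 1 library, and for the same reason no replicate could be left out. Over 6 other scalings Gkn1 ran from 25.97-fold to 47.1-fold lower in the sorted library, Anxa10 from 2.28-fold to 4.13-fold lower, and Tff3 from 13.2-fold to 23.97-fold higher. The median log2 fold of the 9 measured members was -3.76 with library totals, -3.91 without the 20 most abundant genes and -3.38 with the ubiquitous genes. That last scaling, whose own genes had a median log2 fold of -0.59, moved all log2 folds by 0.75. It turned Gkn3 to a ratio of 1.04, left 6 members lower (without Aqp5) against 7, and left 2237 of all measured genes lower and 6452 higher, against 3723 and 3652. With a 4-fold limit and an interval beyond 2-fold, 5 members were lower (without Anxa10 and Aqp5), and 1927 of all genes were lower and 2272 higher. The median log2 fold of all measured genes turned to 0.31 with library totals, 0.16 without the 20 most abundant genes and 0.70 with the ubiquitous genes. With the ubiquitous genes 4 list medians also turned, to 0.38 (BRICHOS genes), 0.085 (trefoil domain genes), 0.12 (chief cell genes) and 0.16 (the ubiquitous genes themselves). The causes were not tested. Depth limits Aqp5 and Tff3 most, with 43 counts for Aqp5 in the sorted library and 92 for Tff3 in the depleted library.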
